A study of Mus musculus with 2 samples.

Results

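Vomeronasal type 1 receptor genes were examined in a chromatin immunoprecipitation and sequencing experiment on intestinal stem cells of mice. The members are the protein-coding genes on chromosomes 1 to 19 whose symbol is Vmn1r followed by a number alone. There were 230 of them among 20665 protein-coding autosomal genes of the RefSeq table for GRCm38.p6, and 228 had a position on a chromosome. The other 2, Vmn1r186 and Vmn1r187, had scaffold coordinates and were not placed. The samples are 2 libraries, both from stem cells sorted for high GFP and low CD24 from 12 Lgr5-EGFP-IRES-creERT2;setdb1fl/fl mice of strain C57BL/6, 8 weeks after birth. The first is a ChIP library for H3K9me3, a histone mark of silenced chromatin, and the other is a control, called input in its title and IgG in its antibody label. The cells of both carry the Cre driver, which is expressed from the stem cell gene Lgr5, and the floxed allele of Setdb1, which encodes an H3K9 methyltransferase. The labels do not say whether Setdb1 had been deleted. With 1 library each and no replicate, the values below describe these libraries, intervals cover counting error alone, and no test between samples was made.

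Vomeronasal type 1 receptors are G-protein-coupled receptors of sensory neurons in the apical layer of the vomeronasal organ, where they detect pheromones and other chemical cues. A single neuron is thought to express one or few of them, and their signal passes through the G protein subunit Gnai2 to the cation channel Trpc2. The genes have a short coding region in a single exon and lie in clusters of similar copies. In olfactory neurons of the mouse, silent genes of the olfactory receptor family, which also encode chemosensory receptors, are known to carry H3K9me3.

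Few receptor genes had a called peak of the mark at or close to the gene. A peak of the deposited list touched the span or the 5 kb on either side of 27 of 228 members (11.8%, exact 95% interval 7.95 to 16.8%). Among all 20558 placed protein-coding autosomal genes the share was 56.8%. Most members are about as long as their coding region, with a median annotated length of 924 bp and 87.3% of lengths a multiple of 3, and short genes have less span to carry a peak. Among the 2979 other genes in the length range of the members (897 to 3660 bp, from their 5th to their 95th percentile), 35.3% had a peak in the same window. Without the cluster on chromosome 7 that holds the most members, their share was 7.75%. The span itself was touched in 2 members (0.877%, interval 0.106 to 3.13%), Vmn1r14 and Vmn1r48, against 23.6% of the other genes in the length range and 47.6% of all genes. The nearest peak lay at a median of 16302 bp from a member (quartiles 9148 and 35509 bp), against 12984 bp for the other genes in the length range. It lay at a median of 10315 bp from the 86 members of that cluster, closer than for the other genes in the length range, and at 20852 bp from the 142 members elsewhere. Vmn1r209 on chromosome 13 was farthest from one, at 98207 bp. A gene without a called peak is not shown to lack the mark. The lowest peaks of the list held 9 tags, and how reads of near-identical copies were placed is not given.

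No peak lay on the annotated start windows of the members. These RefSeq windows, from 250 bp before to 50 bp after an annotated start, were given for 205 members, and none of them was touched by a peak, which allows a share of up to 1.46%. In 197 members this start is that of the gene's annotated span, and in the other 8, Vmn1r14 and Vmn1r30 among them, it lies inside the span. No peak lay within 250 bp of the span's own start in any of the 205. The gene's first bases in the window were ATG, the usual start codon, in 180 of 205 members, against 8.02% of 16252 other protein-coding genes. For most members the window therefore marks the coding start, while for most other genes it does not, so unlike places are compared and the members' transcription starts are not known from these tables. In the 1 kb upstream of the start, 0% of the 83 members in the largest cluster of chromosome 7 and 0% of the 122 members elsewhere had a peak, against 18% of 16252 other protein-coding genes. In the first 1 kb downstream the shares were 0%, 0.82% and 22.6%. For the shorter start windows themselves, no share of other genes was taken. Farther from the start, the values differed between the largest cluster and the other members. The largest cluster had its highest upstream bin, picked after the values were seen, from 10 to 11 kb, with a peak at 19.3% of members, against 5.1% of other genes. Its highest downstream bin, from 11 to 12 kb, held 16.9%, against 5.2%. Other bins of the cluster were below other genes, with 3.6% against 4.5% from 6 to 7 kb upstream and 1.2% against 5.6% from 9 to 10 kb downstream. Among members elsewhere the bins that were highest in the cluster held 2.5% and 3.3%. Neighbouring members can share a peak in these bins, so the shares count genes and not separate peaks.

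**Figure D1:**
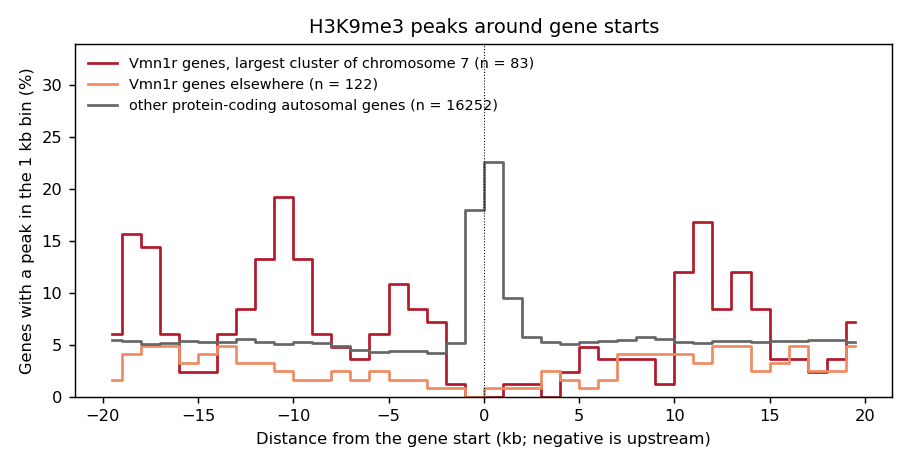
Share of genes with an H3K9me3 peak in each 1 kb bin, by distance in kb from the gene start, for members in the largest cluster of chromosome 7, members elsewhere and other protein-coding autosomal genes. Other genes have their highest bin, 22.6%, just downstream of the annotated start, where both sets of members are at or near 0.

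Peaks were graded by their normalized tag count, the ChIP tags of a peak scaled by the authors to a common total. Unscaled tags, mapped reads as the peak caller counts them, are given where a single peak is described, and the median peak of the list held 16.5 of them. Tall peaks are the top 10% of the whole list, with at least 50.8 normalized tags, and weak peaks are those below the list's median of 17.3. A tall peak lay within 5 kb of 7 of 228 members (3.07%, interval 1.24 to 6.22%), against 6.68% of all protein-coding autosomal genes and 4.63% of the other genes in the length range. A weak peak lay within 5 kb of 12 members (5.26%, interval 2.75 to 9.01%), against 39.2% of all genes and 18.7% of those in the length range. Against all genes and against those in the length range alike, the members' share was lower by a larger factor for weak peaks than for tall ones. Without Vmn1r2, Vmn1r3 and Vmn1r238 the tall share was 1.78%, with the peak's centre required in the window it was 1.75%, and with peaks of at most 10 control tags it was 1.32%. Within 20 kb it was 12.7%, against 11.5% of all genes. The 27 members had 29 separate peaks in their windows, of which 6 were tall, 10 were between the limits and 13 were weak. Counted by member, the tallest peak lay upstream of the annotated span in 12 of the 27, downstream in 7 and on it in 2. The other 6 members had no given strand, and among them Vmn1r2 and Vmn1r3 share a peak. Of the 12 with the tallest peak upstream, 6 belong to 1 group with near-identical start windows, described below. Over all 205 members with a given strand, the nearest peak at any distance lay upstream in 97 and downstream in 106. The lowest tall peak held 55.5 normalized tags, at Vmn1r30, and the highest peak below the limit held 42.4, at Vmn1r168.

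**Figure D2:**
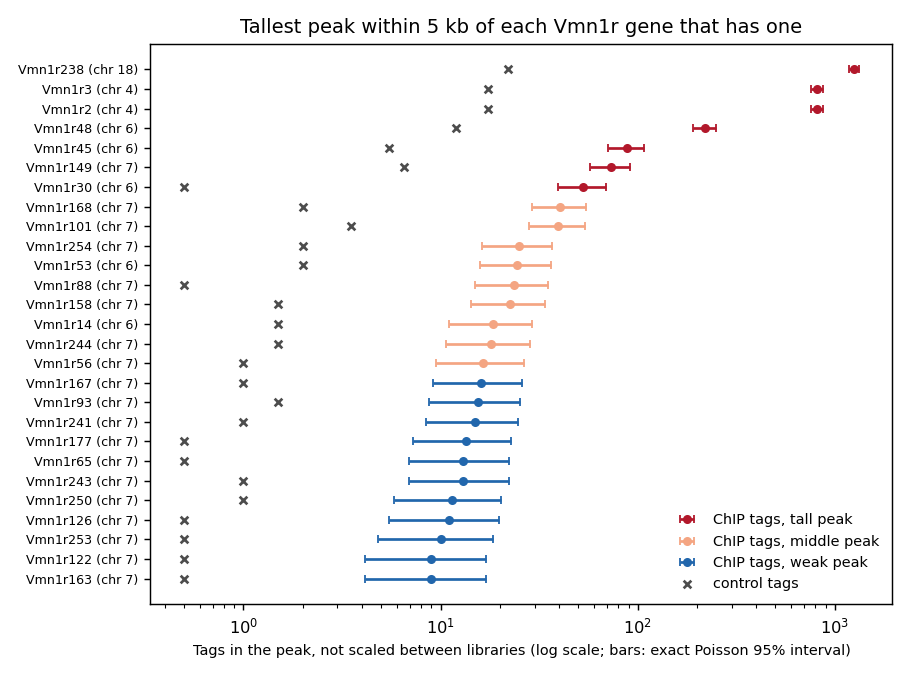
Tags in the tallest peak within 5 kb of each of the 27 members that have one, on a log axis, with exact Poisson 95% intervals, beside the control tags in the same peak. Vmn1r238, Vmn1r3 and Vmn1r2 stand above 800 ChIP tags, and the lowest members stand at 9 ChIP tags with 0.5 control tag.

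The tallest peaks within 5 kb of a member stood beside 3 receptor genes that lie outside the clusters, near the start of the assembled sequence of their chromosomes. Vmn1r238 on chromosome 18 (3122492 to 3123412) had a peak at 3112446 to 3120941 with 1255 ChIP tags (exact Poisson 95% interval 1187 to 1326), 22 control tags and a fold over control of 39.03. Vmn1r2 (3172083 to 3173003) and Vmn1r3 (3184385 to 3185305) on chromosome 4 lie on either side of a single peak, at 3174434 to 3182886, with 817 tags (762 to 875), 17.5 control tags and a fold of 31.94. Both peaks were among the tallest of 40119 in the list, at ranks 23 and 35.

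These peaks were alike in width and placement. The one on chromosome 18 was 8495 bp wide and the one on chromosome 4 was 8452 bp wide, against a median of 765 bp for autosomal peaks. The peak ended 1551 bp before the lower coordinate of Vmn1r238 and 1499 bp before that of Vmn1r3, and it began 1431 bp after Vmn1r2. Vmn1r2 had a further tall peak 6384 bp away, outside the 5 kb window, with 198.5 normalized tags. Vmn1r261 on chromosome 6 (3143644 to 3144564), a pseudogene of the family and no member, had a peak of 251.4 normalized tags that ended 1569 bp before it. The 3 members and the pseudogene began 49.4 to 114 kb after the first peak of their chromosome. The sources used here do not say how reads that match several places were placed, so the share of each copy in these tags is uncertain.

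On chromosome 6, 5 of 51 members had a peak within 5 kb (9.80%, interval 3.26 to 21.4%), against 52.5% of the other protein-coding genes of that chromosome. Tall peaks lay at 3 of the 51 (5.88%, interval 1.23 to 16.2%), against 5.89% of the others. Vmn1r48 had the tallest peak of any clustered member, with 219 tags (191 to 250), 12 control tags and a fold of 12.49. This peak (90033238 to 90036036) reached into the far end of Vmn1r48 (90035933 to 90036841), which reads from the minus strand, and left its annotated start uncovered. Vmn1r45 had 88 tags (70.6 to 108) in a peak 1719 bp upstream of the gene. The peak of Vmn1r30 held 53 tags (39.7 to 69.3) and lay 2998 bp downstream, and its fold of 72.53 rests on the lowest control value, 0.5 tag. Vmn1r14, whose annotated span of 8196 bp is longer than that of the median member, had 18.5 tags (11.1 to 29.1) inside that span. Vmn1r53 had 24.5 tags (15.8 to 36.3) at 4157 bp.

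Chromosome 7 holds 124 placed members, of which 19 had a peak within 5 kb (15.3%, interval 9.48 to 22.9%), against 55.8% of the other genes of the chromosome. A tall peak lay at 1 of the 124, Vmn1r149 (0.806%, interval 0.0204 to 4.41%), against 6.05% of the others. Of the 19, 16 belong to a cluster of 86 members between 20.10 and 24.06 Mb, from Vmn1r91 to Vmn1r183. The other 3 were Vmn1r56 (16.5 tags), Vmn1r65 (13 tags) and Vmn1r88 (23.5 tags). In the cluster, Vmn1r149 had 73 tags (57.2 to 91.8) in a peak 1760 bp upstream, and Vmn1r101 had 39.5 tags (28.2 to 53.9) in a peak 2168 bp upstream. Vmn1r168 had 40.5 tags (29.0 to 55.0), Vmn1r254 had 25 tags and Vmn1r158 had 22.5 tags. The windows of the remaining 11, Vmn1r244, Vmn1r167, Vmn1r93, Vmn1r241, Vmn1r177, Vmn1r243, Vmn1r250, Vmn1r126, Vmn1r253, Vmn1r122 and Vmn1r163, had tallest peaks of 18 down to 9 tags, and 9 is the lowest tag count in the list. Vmn1r101, Vmn1r243 and Vmn1r158 had 2 peaks in their windows, and the other members with a peak had 1.

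Members of this cluster are close copies, and their start windows fell into groups. Of 83 start windows in the cluster, 73 had at least 95% identity with that of another member, against 10 of 122 elsewhere. Linking windows at 95% identity gave 5 groups of 3 or more members, all in the cluster, of 20, 14, 12, 10 and 7 genes. In the group of 14, which holds Vmn1r149 and Vmn1r101, a peak lay in the 5 kb upstream of the annotated start of 6 members. In the group of 20, which holds Vmn1r163, this was so for 1 member, in the group of 12, which holds Vmn1r254, for 1, in the group of 7, which holds Vmn1r93, for 1, and in the group of 10, which holds Vmn1r111, for 0. The Vmn1r111 group had no peak within 10 kb of any of its 10 members, which allows a share of up to 30%, and within 20 kb 2 of the 10 had one. The groups of 20, 14, 12 and 7 had a peak within 10 kb of 9, 8, 6 and 6 members, against 64.1% of all protein-coding autosomal genes. Within 5 kb on either side of the gene, these groups had one at 1, 6, 3 and 3 members, and the group of 10 at 0. In that window the share of all genes was 56.8%. For the 5 kb upstream alone, no share over all genes was taken.

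The start windows below show what these groups look like and how far apart they are, with 1 window for each group, a further one for the group with most upstream peaks, and one for Vmn1r48. They are RefSeq sequences of GRCm38.p6, 300 bases each, written 5′ to 3′ along the gene's strand, with the CG dinucleotides in capitals. The windows are chr7:22438180-22438479 for Vmn1r149, chr7:20334016-20334315 for Vmn1r243, chr7:20139039-20139338 for Vmn1r93, chr7:20703167-20703466 for Vmn1r111, chr7:22370990-22371289 for Vmn1r254 and chr6:90036792-90037091 for Vmn1r48, all on the minus strand, and chr7:23055290-23055589 for Vmn1r163, on the plus strand. They hold the annotated start, the bases before it and the first bases of the gene, and in these 7 windows the gene opens with ATG. Vmn1r101 has the same 300 bases as Vmn1r149, and their upstream peaks held 41.4 and 76.5 normalized tags. Vmn1r243 is 99.0% identical to them, and the windows of Vmn1r163, Vmn1r93, Vmn1r111 and Vmn1r254 are 84.8%, 82.0%, 81.8% and 78.6% identical to that of Vmn1r149.
Vmn1r149: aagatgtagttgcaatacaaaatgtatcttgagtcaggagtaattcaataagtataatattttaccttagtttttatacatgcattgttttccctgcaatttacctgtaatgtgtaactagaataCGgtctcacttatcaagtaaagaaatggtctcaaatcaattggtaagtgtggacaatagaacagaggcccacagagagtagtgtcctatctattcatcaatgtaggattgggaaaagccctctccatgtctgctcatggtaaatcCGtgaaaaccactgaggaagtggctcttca
Vmn1r243: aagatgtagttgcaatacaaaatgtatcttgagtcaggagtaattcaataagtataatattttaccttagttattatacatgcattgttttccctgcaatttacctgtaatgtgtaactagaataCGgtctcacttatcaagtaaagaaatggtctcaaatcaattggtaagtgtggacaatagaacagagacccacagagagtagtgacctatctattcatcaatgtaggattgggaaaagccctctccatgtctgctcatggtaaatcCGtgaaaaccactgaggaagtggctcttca
Vmn1r163: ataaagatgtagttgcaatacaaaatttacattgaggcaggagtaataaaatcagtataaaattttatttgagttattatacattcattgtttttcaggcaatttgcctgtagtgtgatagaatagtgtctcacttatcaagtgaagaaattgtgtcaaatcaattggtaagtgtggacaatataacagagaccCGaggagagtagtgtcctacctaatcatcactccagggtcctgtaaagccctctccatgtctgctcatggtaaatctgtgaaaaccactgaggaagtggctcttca
Vmn1r93: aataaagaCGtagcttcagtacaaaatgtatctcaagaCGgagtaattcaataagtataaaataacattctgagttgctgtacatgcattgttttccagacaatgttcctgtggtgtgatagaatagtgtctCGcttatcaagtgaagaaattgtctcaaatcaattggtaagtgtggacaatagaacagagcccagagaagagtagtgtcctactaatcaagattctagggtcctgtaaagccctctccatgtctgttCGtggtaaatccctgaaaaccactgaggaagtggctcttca
Vmn1r111: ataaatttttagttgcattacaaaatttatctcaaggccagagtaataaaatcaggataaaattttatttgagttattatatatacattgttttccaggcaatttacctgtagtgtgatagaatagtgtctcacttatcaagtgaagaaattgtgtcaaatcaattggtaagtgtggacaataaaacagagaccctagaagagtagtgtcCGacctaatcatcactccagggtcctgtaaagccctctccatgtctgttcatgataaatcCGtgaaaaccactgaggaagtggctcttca
Vmn1r254: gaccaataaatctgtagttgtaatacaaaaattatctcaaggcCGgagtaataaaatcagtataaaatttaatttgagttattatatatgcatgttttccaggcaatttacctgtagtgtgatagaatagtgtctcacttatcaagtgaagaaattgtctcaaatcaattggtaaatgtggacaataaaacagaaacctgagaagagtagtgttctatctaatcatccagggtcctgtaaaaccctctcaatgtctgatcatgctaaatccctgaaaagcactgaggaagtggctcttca
Vmn1r48: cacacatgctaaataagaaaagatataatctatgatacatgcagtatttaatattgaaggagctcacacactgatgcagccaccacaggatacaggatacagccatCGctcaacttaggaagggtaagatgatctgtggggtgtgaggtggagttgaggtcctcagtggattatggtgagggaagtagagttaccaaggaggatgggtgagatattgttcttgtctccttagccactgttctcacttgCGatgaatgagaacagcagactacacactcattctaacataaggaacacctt

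Members with identical start windows did not always have a peak alike. There were 21 sets of members with the same 300 bases, 54 members in all. In 14 sets no member had a peak within 5 kb, in 1 set every member had one, and in 6 sets some had one and others had none. The set with a peak at every member was Vmn1r101 and Vmn1r149. Vmn1r243 and Vmn1r253 had an upstream peak (13.6 and 10.5 normalized tags) while Vmn1r119, with the same window, had none, and Vmn1r241 had one (15.7) while Vmn1r117 and Vmn1r251 had none. In the Vmn1r93 set, Vmn1r93, Vmn1r126 and Vmn1r250 had a peak within 5 kb and Vmn1r114 had none. Some of these peaks were near the list's lowest count of 9 tags. Vmn1r253 had 10 tags (4.8 to 18.4) and Vmn1r126 had 11 (5.49 to 19.7), so presence or absence there can be counting error. None of the peaks lay on the 300 bases that were compared. On chromosome 6 the window printed for Vmn1r48 is also that of Vmn1r47, and the peak that touches Vmn1r48 lies 10418 bp from Vmn1r47. By the same limit of 95%, members with a near-identical start window elsewhere in the family had a peak within 5 kb in 16 of 83 cases. Members without such a match had one in 5 of 122 cases, and all protein-coding autosomal genes in 56.8%. Of the 83, 73 lie in the largest cluster, so window identity and cluster cannot be told apart here. Members without a given window are not in these counts. Whether the placement of reads among copies plays a part in these counts was not tested.

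The letters of the start windows, at the coding start in most members but not in most other genes, were poor in CG. The 205 members had a median of 1 CG dinucleotide in 300 bases (quartiles 1 and 2, highest 6), against 14 (quartiles 4 and 25) in 16252 other protein-coding genes. At least 5 were present in 2 members (0.976%), against 72.8% of the others. Members with a peak within 5 kb had a median of 2 and members without one a median of 1. Of the 21 with a peak and a window, 16 lie in the largest cluster of chromosome 7, and the medians were not split by cluster. The median GC content of the windows was 36.0% in members and 57.0% in the other genes.

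The clusters of chromosomes 13 and 17 had no peak near a member. None of the 35 members between 22.09 and 23.25 Mb of chromosome 13 had a peak within 5 kb, which allows a share of up to 8.57%, against 51.0% of the other protein-coding genes of the chromosome. None of the 14 members between 20.42 and 21.31 Mb of chromosome 17 had one, which allows up to 21.4%, against 64.4% of the others. The same held for Vmn1r32 to Vmn1r39 on chromosome 6 (8 members, up to 37.5%). It held for Vmn1r66 to Vmn1r71 (6, up to 50%) and Vmn1r72 to Vmn1r84 (13, up to 23.1%) on chromosome 7. The limits for the sets of 8 and 6 exceed the 35.3% of other genes in the length range. Nor was there a peak at Vmn1r1 on chromosome 1 or at Vmn1r90, Vmn1r184 and Vmn1r185 on chromosome 7, which stand alone or as a pair. A tall peak lay at 0 of all these members, against 6.42% of the other genes of chromosome 13 and 6.69% of those of chromosome 17. The limits of 8.57% and 21.4% apply to these counts too and include both shares, so the tall counts do not set the 2 clusters apart. Within 20 kb, 16 of the 35 members on chromosome 13 and 6 of the 14 on chromosome 17 had a peak, so the peaks of these clusters lay beyond 5 kb of any member. Across all members, 129 of 228 had a peak within 20 kb (56.6%, interval 49.9 to 63.1%), against 58.8% of the other genes in the length range and 74.1% of all genes.

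Between neighbouring members the density of peaks was higher than over the autosomes. Gaps were taken from 5 kb after a member to 5 kb before the next, for neighbours at most 500 kb apart, and other genes can lie in them. The 212 gaps covered 8.42 Mb and held 249 peaks, or 29.6 per Mb (exact Poisson interval 26.0 to 33.5), against 16.2 per Mb (15.9 to 16.6) in 10473 other gaps between neighbouring protein-coding genes and 15.4 per Mb over the autosomes. At least 1 peak lay in 110 of the 212 gaps (51.9%, interval 44.9 to 58.8%), against 39.8% of the other gaps. A tall peak lay in 33 of them (15.6%, interval 11.0 to 21.2%), against 8.85%. The density was higher between members in each of 4 classes of gap length. Gaps of up to 10 kb held 69.3 peaks per Mb (27.9 to 143) between members and 19.1 elsewhere. Gaps of over 10 to 20 kb held 34.8 peaks per Mb (24.0 to 48.9) between members and 20.7 elsewhere, those of over 20 to 50 kb held 25.7 (19.3 to 33.4) and 21.3, and those of over 50 kb held 29.4 and 15.0. In the gaps of over 20 to 50 kb the interval included the value elsewhere.

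More than 1 in 2 of these peaks lay in a single cluster. The largest cluster of chromosome 7 had 138 of the 249 peaks, in 3.02 Mb of gaps, or 45.7 per Mb (38.4 to 54.0), and 20 of them were tall. Without it, the gaps between members held 111 peaks in 5.40 Mb, or 20.5 per Mb (16.9 to 24.7). The gaps leave out the members and the 5 kb around them, where peaks were few. With these included, the other clusters held 110 peaks in 6.68 Mb, or 16.5 per Mb (13.5 to 19.9). That interval included the value over the autosomes, 15.4. On chromosomes 13, 17 and 6 the interval of the gaps between members included the value of the other gaps. On chromosome 13 the density was 19.0 per Mb (10.6 to 31.3) between members and 15.6 elsewhere. On chromosome 17 it was 18.7 (10.2 to 31.3) between members and 22.6 elsewhere. Chromosome 6 had 20.2 (14.1 to 28.1) between members and 15.7 elsewhere, and chromosome 7 as a whole had 35.8 (30.8 to 41.3) and 17.7. The cluster from Vmn1r72 to Vmn1r84 on chromosome 7 and the one from Vmn1r40 to Vmn1r54 on chromosome 6 followed the largest one, at 26.8 (15.0 to 44.2) and 26.3 (12.6 to 48.4) per Mb.

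**Figure D3:**
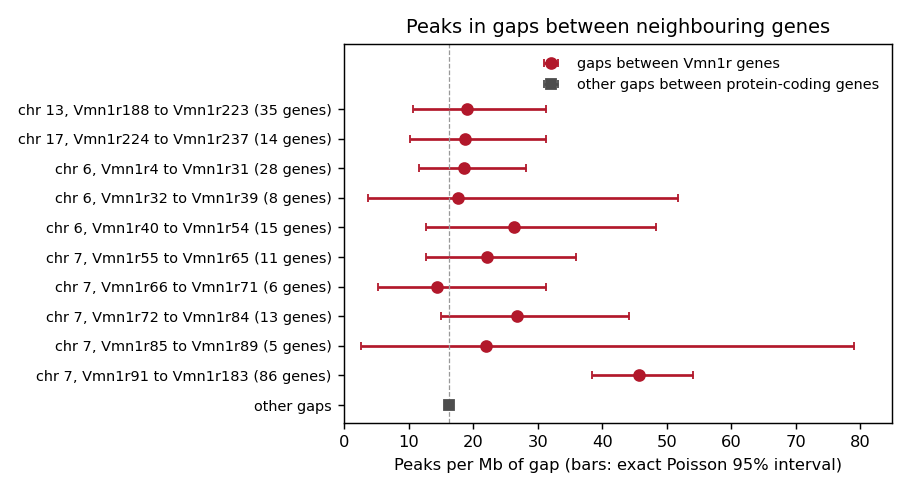
Peaks per Mb in the gaps between neighbouring members, for the 10 clusters of 3 or more members, with exact Poisson 95% intervals, above the other gaps between protein-coding genes. The cluster from Vmn1r91 to Vmn1r183, at 45.7 per Mb, is the one of the 10 whose whole interval lies above the other gaps, at 16.2 per Mb.

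The largest cluster lies in a stretch of chromosome 7 in which windows without members also held many peaks. The 1 Mb windows between 20 and 24 Mb held 44, 35, 51 and 27 peaks, against a median of 12 over 2411 autosomal windows. The window from 22 to 23 Mb held 10 tall peaks, and 14 autosomal windows held more. The stretch just before the cluster, from 19 to 20 Mb, has no member and held 101 peaks, of which 3 were tall. After the cluster, the windows from 25 to 26 Mb and from 27 to 28 Mb, also without a member, held 54 and 42 peaks, with 1 tall peak each. All windows from 17 to 28 Mb were above the median. The gap between Vmn1r160 and Vmn1r258, of 102 kb, held 9 peaks, and the gap between Vmn1r132 and Vmn1r247, of 135 kb, held 8. Peaks of the cluster had a median of 18.9 normalized tags, against 17.3 over the autosomes outside all clusters. The control held 1.69 tags per kb of peak in the cluster, against 1.95 outside, and 35.1% of its peaks stood at the lowest control value, against 43.3%.

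**Figure D4:**
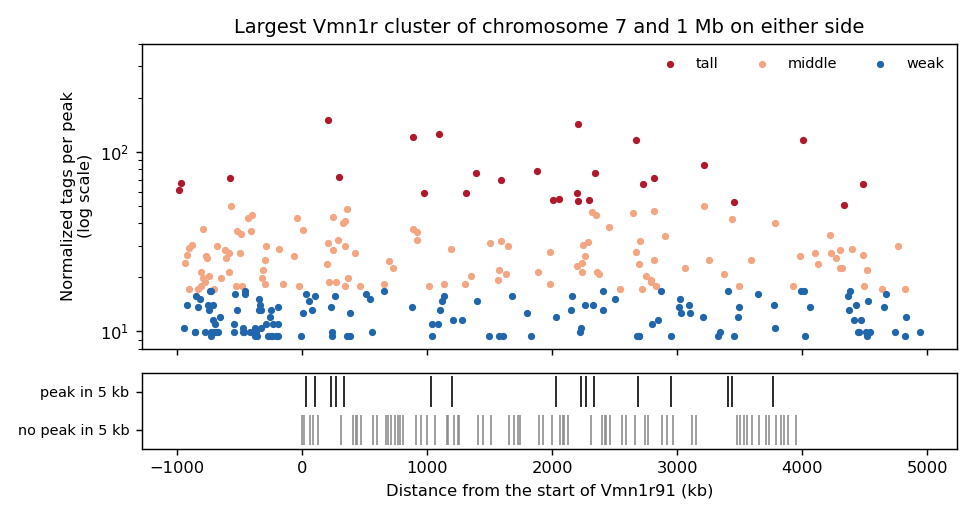
Normalized tags (log scale) of each peak in the largest cluster of chromosome 7 and 1 Mb on either side, by distance in kb from the start of Vmn1r91, with the members below as lines, upper row with and lower row without a peak within 5 kb. Tall peaks recur along the 86 members, while the stretch before Vmn1r91 holds many weak peaks.

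Of the 5 tallest peaks in gaps, 4 lay over 20 kb from any member, and the fifth is that between Vmn1r2 and Vmn1r3. The tallest (12009923 to 12018318 on chromosome 7) lay between Vmn1r76 and Vmn1r77, 22981 bp from the nearer one. It held 1739.5 tags (1659 to 1823) with 40 control tags and a fold of 29.76, and it was 8395 bp wide and ranked 14 in the list. In the largest cluster, the gap between Vmn1r242 and Vmn1r243 had a peak of 143.5 tags (121 to 169) and a fold of 39.27, that between Vmn1r252 and Vmn1r253 one of 136 tags (114 to 161), and that between Vmn1r123 and Vmn1r124 one of 120.5 tags (99.9 to 144). These 3 lay 20781 to 35169 bp from the nearest member. Over all gap peaks the median distance to a member was 17936 bp, with 19293 bp for tall peaks and 20995 bp for weak ones.

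Of the 249 gap peaks, 221 (88.8%) touched no annotated gene. The gaps were cut to leave out members and the 5 kb around them, which by itself raises this share. The same share was not taken over other gaps or over all autosomal peaks. Another 12 touched a protein-coding gene that is no member, and 16 touched another annotated gene. None touched a pseudogene of the Vmn1r family, which allows a share of up to 1.20%. Of the 38 tall gap peaks, 35 touched no gene, 1 touched Nlrp4e (84.3 normalized tags), and the other 2 touched the predicted genes Gm6809 (117.3) and Gm30645 (60.2). The 137 autosomal pseudogenes of the family had a peak within 5 kb at 12 (8.76%, interval 4.61 to 14.8%) and on the span of 0, which allows a share of up to 2.19%.

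The share of tall peaks was higher, and that of weak peaks lower, in the clusters than over the autosomes outside them, and the difference was smaller beside the gaps between other genes. Of 264 peaks in the 10 clusters, 41 were tall (15.5%, interval 11.4 to 20.5%), against 9.79% of autosomal peaks outside the clusters. Weak peaks made up 36.4% (30.6 to 42.5%), against 49.4%. In the gaps between members 15.3% of peaks were tall (11.0 to 20.3%), against 12.8% in other gaps between protein-coding genes, a value within that interval. Tall peaks made up 14.5% in the gaps between Vmn2r genes and 13.7% in those between olfactory receptor genes, and weak peaks 38.8% and 41.4%. On chromosome 6 the order was the other way, with 14.3% tall in the gaps between members and 18.1% in the other gaps. Per Mb, the clusters had 3.85 tall peaks (2.76 to 5.23) and 9.02 weak ones, against 1.50 and 7.59 outside. In the largest cluster 13.6% (8.64 to 20.1%) of peaks were tall and 41.6% (33.7 to 49.8%) weak, and in the other 9 clusters 18.2% (11.5 to 26.7%) were tall and 29.1% (20.8 to 38.5%) weak. Per Mb, the largest cluster had 5.30 tall and 16.1 weak peaks, and the other clusters had 2.99 tall and 4.79 weak ones. The median fold over control was 12.32 in the clusters and 12.32 outside, which is also the fold of a peak with 9 tags and 0.5 control tag. Taken from the summed tags, in which tall peaks weigh most, the fold was 12.6 in the clusters and 10.3 outside.

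Among the other large chemosensory families, the share of genes with a peak was higher for Vmn2r genes and, with all members counted, lower for olfactory receptor genes. A peak lay within 5 kb of 11.8% of Vmn1r genes, against 31 of 121 Vmn2r genes (25.6%, interval 18.1 to 34.4%), the type 2 receptors of the basal layer of the vomeronasal organ. The span was touched in 0.877% of Vmn1r genes and 16.5% of Vmn2r genes. The Vmn2r genes have several exons and longer spans. Olfactory receptor genes had a peak in 87 of 1099 cases (7.92%, interval 6.39 to 9.67%). Without the largest cluster the share of Vmn1r genes was 7.75% (interval 3.93 to 13.4%), just under that of olfactory receptor genes. In gaps the order was different, with 29.6 peaks per Mb between Vmn1r genes (26.0 to 33.5), 20 between Vmn2r genes (17 to 23.3) and 17.6 between olfactory receptor genes (15.7 to 19.6). Without the largest cluster the value was 20.5 for Vmn1r genes (16.9 to 24.7), within the interval of the Vmn2r gaps. It was above the interval of the olfactory receptor gaps, but its own interval included their value of 17.6.

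Peaks were also called at genes that vomeronasal neurons use downstream of the receptors, or for their identity. All 14 genes of this list had a peak within 5 kb, against 56.8% of all protein-coding autosomal genes. A weak peak lay at 12 of them, against 39.2% of all genes. Each is longer than the median receptor gene, and the list was not compared with genes of like length. The channel gene Trpc2 had 2 peaks, the tallest with 21 tags, and Gnai2 had 5, the tallest with 26 tags. Itpr3, which encodes a calcium release channel, had 13 peaks, and the transcription factor gene Bcl11b had 9. Gng8 and Gnb1, which encode G protein subunits, had 3 and 2 peaks, and Ano1, which encodes a chloride channel, had 4. Among further transcriptional regulators, Lhx2 and Tfap2e had 3 each, Emx2 and Ldb1 had 2 each and Meis2 had 1. The list had 1 tall peak, at the chloride channel gene Ano2 (58.5 tags, fold 40.03), against 6.68% of all genes with a tall one. Omp, a marker of mature sensory neurons, had 1 peak of 20.5 tags. The shortest, Omp, spans 2.09 kb and the longest, Ano2, 349.7 kb. At the stem cell markers, Lgr5 had 4 peaks, none of them tall, and no peak was called at Olfm4. No expression was measured in these libraries, so the sorted cell type was not checked by its markers.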

How the data were processed

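The authors deposited 1 peak list, from the H3K9me3 ChIP library, and the control library was seen through its tags in those peaks. The submitters' processing notes name Bowtie2 (2.2.8), HOMER (4.10.1) and the builds GRCm38 and mm10. The columns are those of HOMER findPeaks, per the file headers, without its options. The normalized tag count, a coverage signal, was deposited scaled to an unstated total. The authors' score, one value per peak, served as a filter. The deposited fold is the ratio of scaled ChIP tags to control tags, 4 at least, and the deposited p-values reached 8.32e-05.

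Tags were recovered from the constant spacing of low normalized values, 0.524, taken as 0.5 tag because control tags come in steps of 0.5. Within a tolerance of 0.1, 100% of low values were whole steps. Peaks held 9 tags at least, with a median of 16.5. Control depth, from the scaled tags, was 0.684 of ChIP depth. A control of 0.5 tag is the lowest value, so folds there depend on it.

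Gene positions, of the same build, came from RefSeq (GRCm38.p6), 49997 genes. Start windows were compared by global alignment. A peak belonged to a gene if it touched the span or 5 kb around it, and to a gap or cluster by its centre. Autosome lengths were the last peak ends. Intervals are exact Clopper-Pearson for shares and exact Poisson for tags and peaks, at 95%, and limits for a count of 0 use 3 counts. Overlap counting was tested on simulated data. Named are the members with a peak, the 5 tallest gap peaks and the pathway list, and Vmn1r1, Vmn1r47, Vmn1r209, the pseudogene Vmn1r261, members without a peak, Nlrp4e, Gm6809 and Gm30645 were named after their values were seen. The members, lists and limits were chosen with earlier results of these data known. Proteins were not used here. The alternatives were other windows, limits, filters, gap rules and sets of members. Python 3.11 and Biopython 1.88 were used.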

Additional observations from a re-analysis of the deposited data

How the results depend on the processing

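With 1 library each, none could be left out. No paired analysis was possible because the labels give 1 ChIP and 1 control library and no test was made. The share of members with a peak was below that of all coding genes in 9 of 9 other settings with such a value. It moved to 0.877% for the span alone, 4.39% for 2 kb, 30.3% for 10 kb, 56.6% for 20 kb, 7.46% for scores at or above the median and, chosen after seeing the data, 7.75% without the largest cluster. The share with a tall peak was 0.439% for the span alone, and 12.7% at 20 kb, against 11.5% of all genes, the one setting of 11 in which members stood higher. It was 1.78% without Vmn1r2, Vmn1r3 and Vmn1r238, a setting also added later. The share with a weak peak was 0% for the span (a limit of 1.32%), against 31.0% of all genes, and 0.877% for 2 kb, against 34.8%. It was 12.7% for 10 kb, against 46.1%, and 26.3% for 20 kb, against 55.9%. With weak as the lowest 25% it was 2.19%, against 22.8%. It was below that of all genes in 5 of 5 other settings. The share of other coding genes with a peak was 57.3%, and 35.3% in the length range. The density in gaps was 25.7 per Mb from gene end to gene start, 23.2 for scores at or above the median, 22.4 for folds of at least 8, 22.8 with peaks within 5 kb merged and, added later, 20.5 without the largest cluster, and it stayed above the autosomes in 8 of 8 settings. Peaks covered 2.98% of the gaps and 1.40% of the autosomes. The tall share of cluster peaks was 8.71% with tall as the top 5% and 26.5% with the top 20%, above the autosomes in 8 of 8 settings. In 22 of 43 settings the value stayed within the counting interval. Weak peaks of 9 to about 16 tags set the depth limit, and near-identical copies the limit of placement.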
